A study of Mus musculus with 12 samples.

Results

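The miR-26 and miR-101 families were followed through 4 mature miRNAs, mmu-miR-26a-5p, mmu-miR-26b-5p, mmu-miR-101a-3p and mmu-miR-101b-3p (written below without the mmu prefix), in small RNA of the mouse basolateral amygdala (BLA). The members were chosen by name, as the guide strands of the families in the count table, and 4 of the 1060 miRNAs counted were such members. They occupied 5 lines of the table, because miR-26a-5p was listed once under each of its precursors with the same counts, and it was counted once. The tissue came from 10-week-old C57BL/6J males, 12 in total, and each of the 4 groups had 3 of them. In the retrieval-extinction (RE) group, mice were fear conditioned with tones paired with foot shocks, heard a single reminder tone on the next day, and received extinction training (tones without shocks) 1 h later. The extinction (E) group received the same conditioning and extinction without the reminder, and the formation (F) group was conditioned only. The control (C) group went through the procedure of the F group without foot shocks. Brains were taken 1 h after the last training, and those of C mice together with those of F mice, so the day of sampling separates the RE and E groups from the F and C groups. The RE libraries carry the replicate numbers 3 to 5, and those of the other groups 1 to 3. The dissection took most of the BLA of whole tissue, so fewer cells of a type and less of a miRNA per cell cannot be told apart in any value below.

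A miRNA pairs with target mRNAs mainly through its seed, bases 2 to 8 from the 5′ end, and lowers their stability or translation. The miR-26 genes lie within genes of the Ctdsp family, phosphatases of the RNA polymerase II tail that hold back neuronal genes outside the nervous system, and in zebrafish miR-26b was reported to lower its own host gene during neuronal differentiation. Both families are known to act on Ezh2, the methyltransferase that places the repressive mark on histone H3 lysine 27, and miR-101 has also been shown to act on the mRNA of the amyloid precursor protein.

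The mature sequences are shown because they decide which members can share targets and which can share reads. They were taken from RefSeq (GRCm38.p6), were the same as the deposited ones, and all 4 matched by name. Capitals mark the seed.
miR-26a-5p: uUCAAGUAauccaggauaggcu
miR-26b-5p: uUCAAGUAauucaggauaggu
miR-101a-3p: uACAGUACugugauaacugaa
miR-101b-3p: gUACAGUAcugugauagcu
miR-26a-5p, of 22 bases, and miR-26b-5p, of 21 bases, carry the seed UCAAGUA, which no other miRNA of the count table has. With positions counted from 1 at the 5′ end of miR-26a-5p, the pair differs by C11U and C21U over the 21 bases compared. The seeds of miR-101a-3p and miR-101b-3p, ACAGUAC and UACAGUA, are shifted by 1 base, because the annotated miR-101b-3p starts 1 base earlier in the common stretch. Over the 18 bases compared, with positions counted from 1 at the 5′ end of miR-101a-3p, the pair differs by A16G alone. No other miRNA in the table has either seed.

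The hairpins of the miR-101 pair are shown because they place that shift. They are given 5′ to 3′ with the guide strand in capitals.
Mir101a: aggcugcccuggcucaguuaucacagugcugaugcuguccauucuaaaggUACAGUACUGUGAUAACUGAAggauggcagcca
Mir101b: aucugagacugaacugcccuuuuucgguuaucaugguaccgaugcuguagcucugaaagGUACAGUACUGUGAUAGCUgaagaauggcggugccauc
The longest run that both hairpins share is aaagguacaguacugugaua, of 20 bases, and it holds the g that opens the annotated miR-101b-3p. The same g stands just before the annotated start of miR-101a-3p. The deposited counts are 1 number per mature name, and start sites within a name were not analysed here.

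In the GRCm38 annotation, miR-26a-5p has 2 loci. Mir26a-1 lies in an intron of Ctdspl, and its mature sequence covers chr9:119031811-119031832 on the plus strand. Mir26a-2 lies in Ctdsp2 on the plus strand, with the mature sequence at chr10:126995543-126995564, and its hairpin overlaps an exon of protein-coding and retained-intron transcripts of that gene. Reads of the 2 loci cannot be told apart, since the mature sequence is the same. Mir26b lies in an intron of Ctdsp1, with the mature sequence at chr1:74394324-74394344 on the plus strand. miR-101a-3p lies at chr4:101346957-101346977 on the minus strand, in a hairpin that overlaps an exon of the long non-coding RNA E130102H24Rik. miR-101b-3p lies at chr19:29135338-29135356 on the plus strand, in an intron of Rcl1, whose product acts in the processing of ribosomal RNA. The 5 hairpins therefore stand on 5 chromosomes.

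The libraries held 1093194 to 2353896 tags in the miRNAs counted, with a median of 1476788, and shares of tags below are of these. The counted tags were 22.2% to 25.2% of the total per library behind the authors' normalized values. The libraries fell into 2 kinds with 1 library of each group in the smaller one. In RE replicate 4, E replicate 2, F replicate 1 and C replicate 2, let-7g-5p led with 12.9% to 16.1% of tags while miR-148a-3p had 1.79% to 2.36%, and in the other 8 libraries miR-148a-3p led with 12.7% to 15.4%. This split was defined from the libraries themselves and is no group of the study, so its differences are given without a test. Of the 3 brain miRNAs looked at, miR-9-5p and miR-128-3p were high in every library. They were at 22611 to 31383 and at 38986 to 72808 counts per 1000000 (CPM, after TMM scaling). The third, the neuronal miR-124-3p, was far lower at 683 to 1328 CPM. miR-182-5p, miR-183-5p and miR-96-5p, which are high in the retina, summed to 48.8 to 570.4 CPM, and the liver miRNA miR-122-5p was at 5.56 to 20.7 CPM. Other marker lists were summed as well. Muscle (miR-1a-3p, miR-133a-3p and miR-206-3p) was at 395 to 1311 CPM, and choroid plexus (miR-204-5p and miR-211-5p) at 725 to 2228 CPM. Nearly all of each sum came from 1 miRNA. miR-1a-3p was at 386 to 1270 CPM, against 9.04 to 57.0 CPM for miR-206-3p and 0 to 1.54 CPM for miR-133a-3p. miR-204-5p was at 725 to 2228 CPM, against 0 to 2.75 CPM for miR-211-5p. Oligodendrocytes (miR-219a-5p and miR-338-3p) were at 4.52 to 25.1 CPM, and microglia and leukocytes (miR-223-3p and miR-142a-3p) at 4.31 to 28.6 CPM. The series' design note calls the profiles retinal, where the sample labels and the paper name the amygdala. Whether these levels tell the 2 tissues apart was not tested.

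Only miR-26a-5p was among the most abundant miRNAs, so "abundant" describes the families unevenly. miR-26a-5p took 41174 to 79969 tags a library, 2.92% to 4.44% of the tags counted, and ranked 6 to 9 of the miRNAs counted. On the authors' normalized scale, whose total is larger, it stood at 6903 to 10598 per 1000000. miR-101a-3p ranked 53 to 75 with 1754 to 3479 tags (0.120% to 0.213%), and miR-26b-5p ranked 70 to 85 with 1179 to 2318 tags (0.0849% to 0.135%). miR-101b-3p had 175 to 477 tags (0.0126% to 0.0238%) and ranked 143 to 188. Together the 4 miRNAs took 3.23% to 4.75% of the counted tags of a library, and miR-26a-5p made up 90.5% to 94.9% of that sum. Counting error, taken as Poisson error at the lowest count of each, was 0.493% for miR-26a-5p, 2.39% for miR-101a-3p, 2.91% for miR-26b-5p and 7.56% for miR-101b-3p. It covers counting alone, since tags are PCR copies without molecular identifiers.

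**Figure D1:**
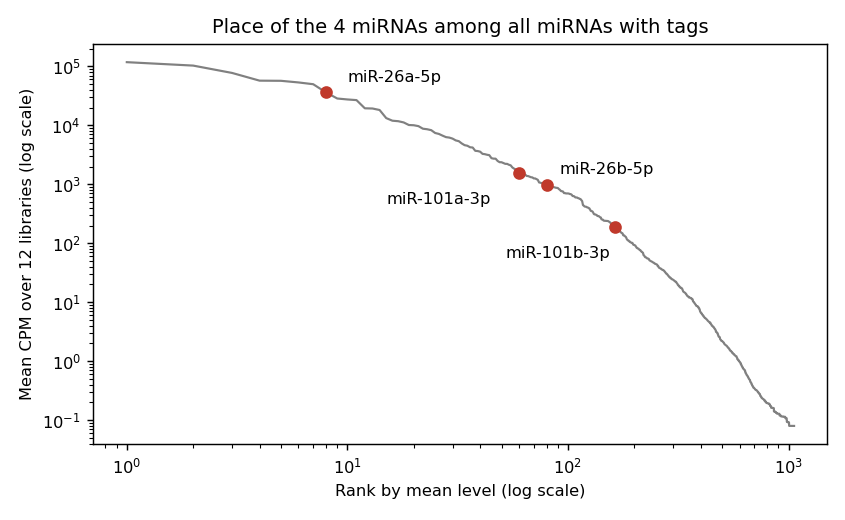
Mean level of every miRNA with tags over the 12 libraries (CPM, log scale) against its rank (log scale), with the 4 members as points. miR-26a-5p sits near the top of the curve, while miR-101b-3p ranked 143 to 188 in single libraries.

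The opposite strands of the miR-26 hairpins had few tags. Those of miR-26a are shown because they differ between its hairpins and so, unlike the guide strand, identify the locus. Capitals again mark bases 2 to 8.
miR-26a-1-3p: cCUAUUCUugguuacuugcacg
miR-26a-2-3p: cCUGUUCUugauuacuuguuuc
miR-26a-2-3p had 12 to 45 tags a library, against 0 to 6 tags for miR-26a-1-3p, which had 0 tags in 2 libraries. How much of miR-26a-5p each locus gave was not tested. miR-26a-5p exceeded miR-26a-2-3p by 1391 to 3530 times. miR-26b-3p had 0 to 5 tags, with 0 tags in 6 libraries that included all 3 of the RE group. The opposite strands of the miR-101 hairpins were not analysed here.

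A further annotated miRNA of the family, miR-101c on chromosome 9, is shown because its letters can share reads with miR-101a-3p.
miR-101c: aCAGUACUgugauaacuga
All of its 19 bases lie within miR-101a-3p from the second base on, with 0 substitutions. It had 0 to 9 tags a library, at most 0.287% of the count of miR-101a-3p. A predicted miRNA of 17 bases on chromosome 6 also lies within miR-101a-3p and had 4 to 63 tags, 0.214% to 2.71% of that count. Through these entries alone, the counts of miR-101a-3p are uncertain by about these shares. miR-101b-3p differs from it by A16G alone over the 18 bases compared, and whether short tags were shared between that pair was not tested.

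miR-26a-5p, the most abundant of the 4, is known from work in neurons to affect dendritic spines and plasticity. It stood at 39809, 43844 and 38299 CPM in RE replicates 3, 4 and 5. It stood at 33708, 39552 and 29372 CPM in E replicates 1 to 3, and at 40434, 33116 and 38349 CPM in F replicates 1 to 3. In C replicates 1 to 3 it stood at 33108, 32102 and 32299 CPM. The 3 RE libraries and the 3 F libraries lay above all 3 C libraries, whereas the E libraries lay on both sides of them. For F this was nearly a tie, at 33116 CPM in F replicate 2 and 33108 CPM in C replicate 1. These were closer than the counting error of either, which was 0.489% and 0.458%. The means were 40651 ± 2867 CPM in RE, 34211 ± 5109 CPM in E, 37300 ± 3770 CPM in F and 32503 ± 533 CPM in C (SD, n = 3 each). The log2 difference of RE to C was 0.32 (SE 0.18, 95% interval -0.07 to 0.71), with an unadjusted p of 0.0948 and an adjusted p of 0.998 in edgeR's quasi-likelihood test. The interval of RE to E ran from -0.14 to 0.64 around 0.25, and that of F to C from -0.19 to 0.59 around 0.20. Neither passed the test, with adjusted p of 0.999 and 1.00.

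The separation of miR-26a-5p from C was seen with TMM scaling, and not with library totals or the authors' values. TMM divides by a factor per library, which was 1.233 in C replicate 2, the highest of the 12, and 0.886 to 1.123 in the others. With library totals in place of TMM, miR-26a-5p stood at 36113 to 41101 CPM in RE and 32688 to 42780 CPM in F, against 31387 to 39575 CPM in C, and the groups overlapped. As a share of tags, it was at 3.96% in C replicate 2, a library led by let-7g-5p. It was at 3.18% and 3.14% in C replicates 1 and 3, against 3.61% to 4.11% in RE and 3.27% to 4.28% in F. By share of tags, C replicate 2 was thus the only C library within the RE and F ranges. Why its TMM factor was the highest, and whether the kind of library had a part in that, was not tested. The log2 difference of RE to C was 0.16 with library totals, and it was 0.10 with limma on the authors' values. The authors' normalized values overlapped as well, at 8358 to 9837 in RE and 7585 to 10598 in F, against 7345 to 9982 in C. Groups that did not overlap were also found for 7.66% of all 431 miRNAs tested in RE against C and for 4.41% in F against C. In the other comparisons the share was 5.57% for RE against F, 7.66% for RE against E, 4.18% for E against C and 7.19% for E against F, with 0 of the 4 members among them.

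miR-26b-5p, which shares the miR-26 seed, was measured at 1140, 967 and 901 CPM in RE replicates 3, 4 and 5, at 1030, 1205 and 916 CPM in E, at 915, 940 and 1112 CPM in F, and at 894, 885 and 963 CPM in C. E replicate 2 was the highest of the 12 and C replicate 2 the lowest, and every group overlapped with every other. The means were 1003 ± 124 CPM in RE, 1050 ± 146 CPM in E, 989 ± 107 CPM in F and 914 ± 43 CPM in C (SD, n = 3 each). The log2 difference of E to C was 0.20 (SE 0.18, 95% interval -0.20 to 0.60, edgeR adjusted p = 0.997), and it was 0.04 in the 8 libraries led by miR-148a-3p.

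miR-101a-3p varied more. It was measured at 2247, 1439 and 1728 CPM in RE replicates 3, 4 and 5 and at 1410, 1372 and 1951 CPM in E replicates 1 to 3. It was measured at 1133, 1586 and 1632 CPM in F replicates 1 to 3 and at 1674, 979 and 1487 CPM in C replicates 1 to 3. RE replicate 3 was the highest library and C replicate 2 the lowest, and the groups overlapped in every comparison. The means followed the order RE, E, F and C, at 1805 ± 409, 1578 ± 324, 1450 ± 276 and 1380 ± 360 CPM (SD, n = 3 each), but no neighbours in that order differed beyond their spread. Its log2 difference of RE to C, 0.39 (SE 0.27, 95% interval -0.21 to 0.99), had an unadjusted p of 0.183 and an edgeR adjusted p of 0.998. With library totals this difference was 0.26, and with limma on the authors' values it was 0.18.

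miR-101b-3p, the least abundant, was measured at 229, 134 and 170 CPM in RE replicates 3, 4 and 5, at 237, 152 and 221 CPM in E replicates 1 to 3, at 122, 221 and 229 CPM in F replicates 1 to 3, and at 236, 133 and 206 CPM in C replicates 1 to 3. In each group the lowest library was the one led by let-7g-5p. The means were 178 ± 48 CPM in RE, 203 ± 45 CPM in E, 191 ± 60 CPM in F and 192 ± 53 CPM in C (SD, n = 3 each). Its RE values gave log2 differences of -0.19 to E (SE 0.33, 95% interval -0.92 to 0.53) and -0.11 to C (SE 0.33, 95% interval -0.83 to 0.62), with edgeR adjusted p of 0.999 and 0.998. The difference to E was -0.32 with library totals and -0.40 with limma on the authors' values, and that to C was -0.23 with library totals and -0.31 with limma (pseudocount of 1).

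**Figure D2:**
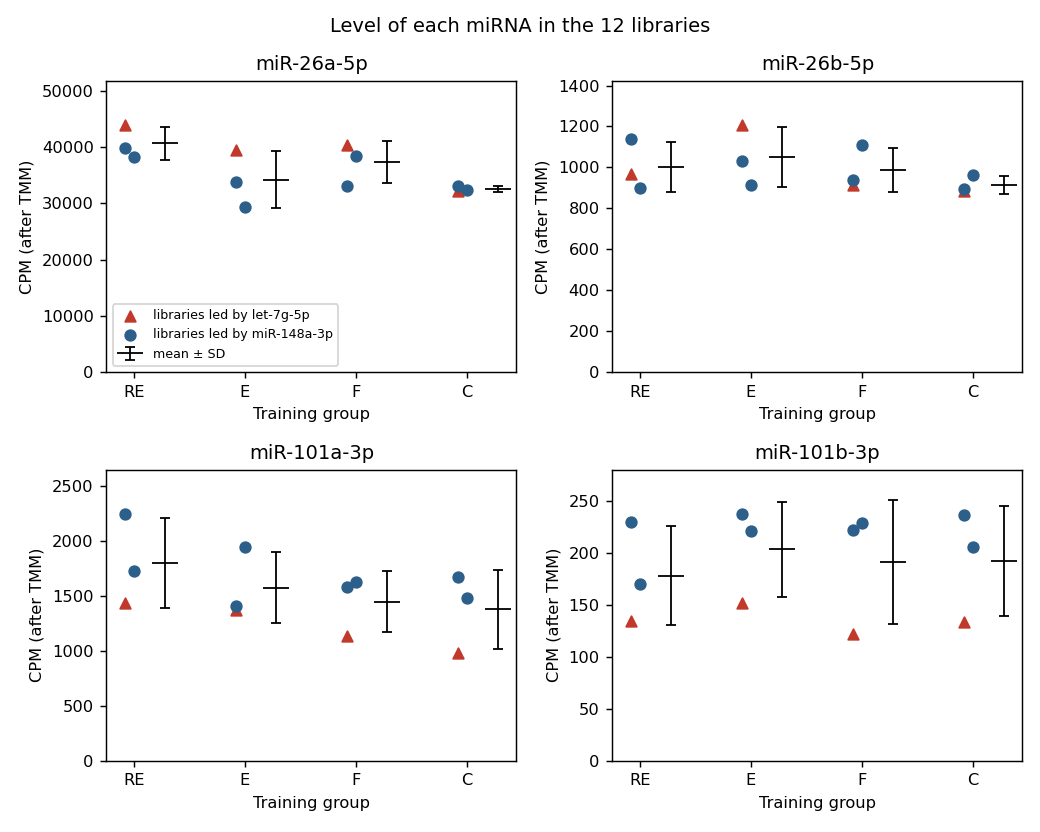
Level of each miRNA (CPM after TMM scaling) in the RE, E, F and C groups, 1 point per library, with the mean and SD of each group (n = 3). Triangles are the 4 libraries led by let-7g-5p and circles the other 8, and for miR-101b-3p every triangle lies below every circle.

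Across the 6 comparisons of the groups, 0 of the 4 miRNAs passed an adjusted p of 0.05 in edgeR, and 0 did so at an unadjusted p of 0.05. DESeq2 and limma also called 0 of them. Over all 431 miRNAs tested the share called by adjusted p was 0% in each comparison. By unadjusted p it was 5.57% for RE against C, 2.09% for RE against F, 2.32% for RE against E, 1.62% for E against C, 3.71% for E against F and 1.86% for F against C. The study's own limits, which ask for a log2 difference of 1 or more in either direction and p under 0.05, were passed by 0 of the 4 miRNAs and by 2.78% of those tested for RE against C, 0.696% for RE against F and for E against C, 0.928% for RE against E, 1.62% for E against F and 1.16% for F against C. With all 4 groups in a single test, the unadjusted p was 0.321 for miR-26a-5p, 0.526 for miR-101a-3p, 0.741 for miR-26b-5p and 0.950 for miR-101b-3p, and 0 of 431 miRNAs passed an adjusted p of 0.05, with 12 at an unadjusted p under 0.05.

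A p that misses the threshold does not show that levels were equal. In the fit of all 12 libraries given above, the 24 intervals lay between -0.92 and 0.99 on the log2 scale. A doubling or halving of any member lay outside its interval in that fit, for miR-101a-3p in RE against C only just. With a replicate left out, that difference ran from 0.15 to 0.53. Intervals with a replicate left out are not given, so the statement on doubling or halving holds for that 1 fit alone. Of the 24 intervals, those of miR-26a-5p were narrowest and those of miR-101b-3p widest. The medians over all miRNAs tested lay between -0.08 and 0.06 in the 6 comparisons.

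**Figure D3:**
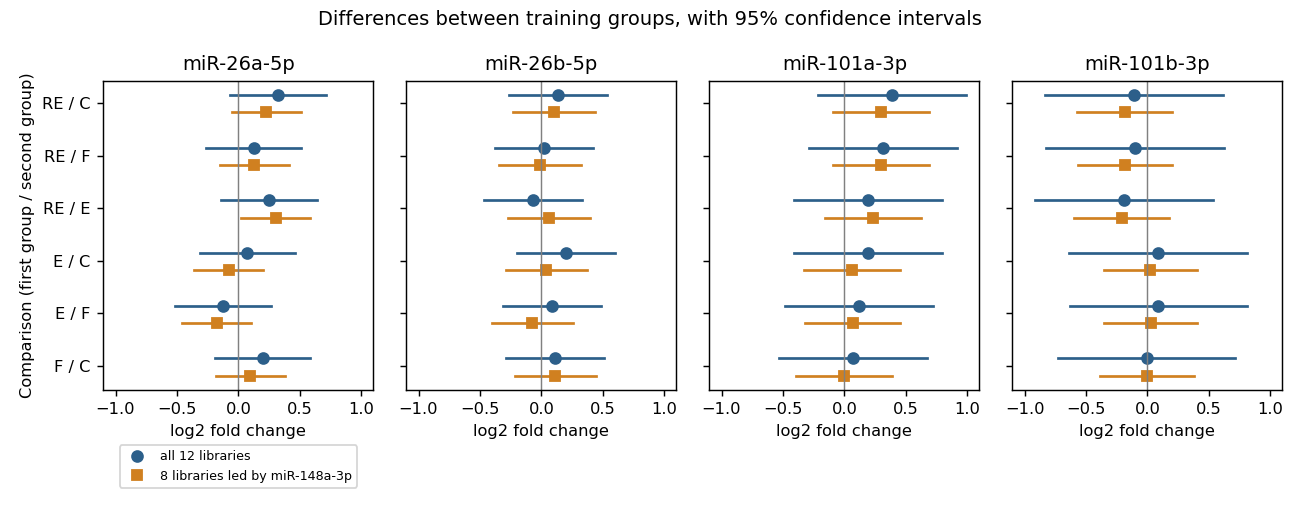
Log2 fold change of each miRNA in the 6 comparisons, first group over second group, with 95% confidence intervals, from all 12 libraries (circles) and from the 8 libraries led by miR-148a-3p (squares). With all 12 libraries every interval includes 0, and with 8 libraries that of miR-26a-5p in RE over E starts at 0.02.

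The miR-101 pair was lower in the libraries led by let-7g-5p. Between the 4 libraries led by let-7g-5p and the 8 led by miR-148a-3p, miR-101b-3p stood at 122 to 152 CPM against 170 to 237 CPM, a log2 difference of -0.68 with ranges that did not overlap. miR-101a-3p stood at 979 to 1439 CPM against 1410 to 2247 CPM, a log2 difference of -0.48. miR-26a-5p differed by 0.16 and miR-26b-5p by 0.00 on the log2 scale. Ranges that did not overlap were common, since 41.8% of the miRNAs tested showed them between these kinds of library, and the median difference was 0.03. What made the 2 kinds of library was not tested.

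**Figure D4:**
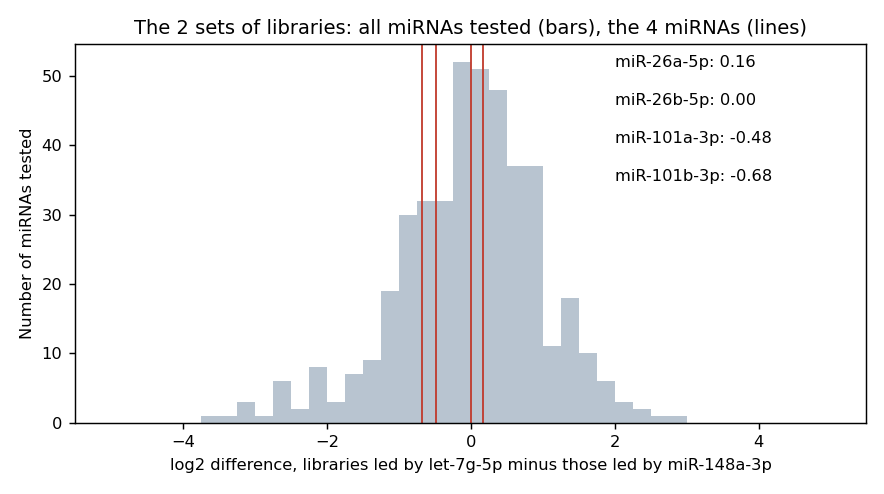
Number of miRNAs tested by their log2 difference between the 4 libraries led by let-7g-5p and the 8 led by miR-148a-3p, with lines at the 4 members. The miR-101 pair stands on the left of 0 at -0.68 and -0.48, and the miR-26 pair at 0.00 and 0.16.

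With the kind of library as a term in the edgeR fit, the errors became smaller and the values stayed close. The log2 difference of RE to C was 0.32 (SE 0.12) for miR-26a-5p and 0.40 (SE 0.15) for miR-101a-3p, with unadjusted p of 0.0169 and 0.0163 and an adjusted p of 0.145 for both. In that fit 18.1% of all miRNAs passed an unadjusted p of 0.05 for RE against C, and 7 passed an adjusted p of 0.05, none of them a member. Unadjusted p under 0.05 were also found for miR-101a-3p in RE against F (0.32, adjusted p = 0.448, 10.9% of all miRNAs) and for miR-26a-5p in RE against E (0.25, adjusted p = 0.380, 12.5% of all miRNAs). In the 8 libraries led by miR-148a-3p alone, miR-26a-5p in RE differed from E by 0.30 (unadjusted p = 0.0363, adjusted p = 0.220, 18.2% of all miRNAs) and from C by 0.23 (unadjusted p = 0.104, adjusted p = 0.419). miR-101a-3p in RE differed from C by 0.30 in these 8 libraries (unadjusted p = 0.119, adjusted p = 0.436).

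By their SD over all 12 libraries, the miR-26 pair was among the steadiest of the 431 miRNAs tested. The SD of log2 CPM over the 12 libraries was 0.15 for miR-26b-5p and 0.18 for miR-26a-5p, and 1.39% and 3.25% of the miRNAs tested had a lower one. It was 0.32 for miR-101a-3p and 0.37 for miR-101b-3p, against a median of 0.48 over all. Within the 8 libraries led by miR-148a-3p the SD of miR-101b-3p was 0.16 and that of miR-101a-3p 0.22. The pair stood out less by the coefficient of variation that edgeR's fit left within groups. That was 21.7% for miR-26b-5p and 23.1% for miR-26a-5p, and 5.34% and 13.0% of the miRNAs tested had a lower one. Depth was far from equal among the 4, at the tag counts given above, and its part in these SDs was not tested.

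Ratios between members are free of the scaling, because both counts come from the same library. The ratio of miR-26a-5p to miR-26b-5p was 34.9, 45.3 and 42.5 in RE replicates 3, 4 and 5, 32.1 to 32.8 in E, 34.5 to 44.2 in F and 33.5 to 37.0 in C. The E libraries were close together and low, and the groups RE, F and C overlapped. The highest E value, 32.8 in replicate 2, and the lowest of the others, 33.5 in C replicate 3, were closer than the counting error of either. That error was 0.793 and 0.911. The ratio of miR-101a-3p to miR-101b-3p was 9.81, 10.7 and 10.2 in RE replicates 3, 4 and 5. It was 5.95, 9.05 and 8.83 in E replicates 1 to 3, 9.28, 7.16 and 7.13 in F replicates 1 to 3, and 7.08, 7.36 and 7.22 in C replicates 1 to 3. All 3 RE libraries thus stood above the other 9, but the lowest RE value, 9.81 in replicate 3, and the highest of the others, 9.28 in F replicate 1, were closer than the counting error of either, which was 0.669 and 0.710. This ratio was looked at after the levels were known and is given without a test. How often ratios of other miRNA pairs set 1 group apart from the rest was not worked out, for this ratio or for miR-26a-5p to miR-26b-5p. The ratio of the summed miR-26 pair to the summed miR-101 pair was 26.7 to 32.9 in the libraries led by let-7g-5p, against 13.9 to 21.2 in those led by miR-148a-3p.

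**Figure D5:**
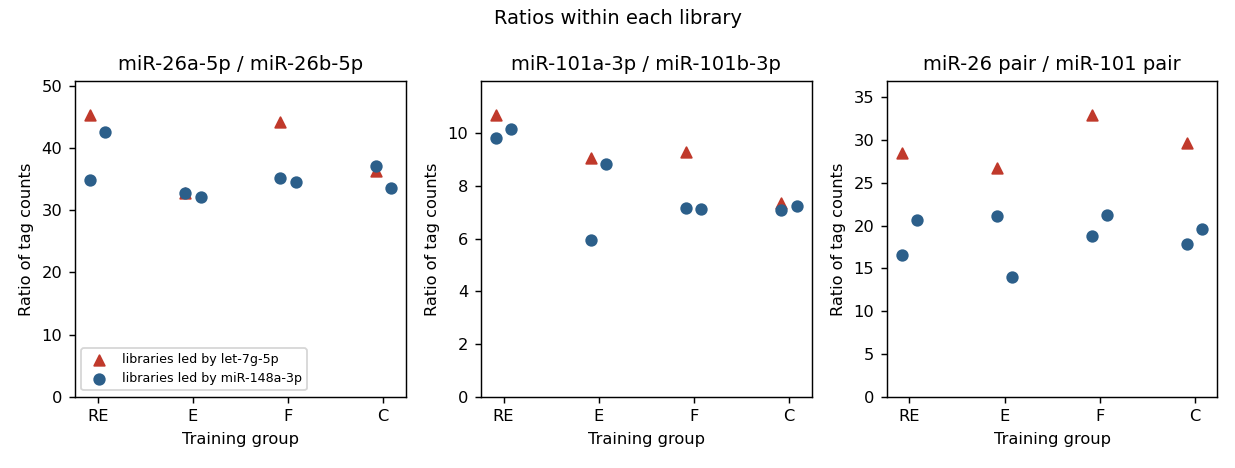
Ratios of tag counts within each library, by group (RE, E, F, C), with triangles for the 4 libraries led by let-7g-5p and circles for the other 8. The miR-101a-3p to miR-101b-3p ratio of the RE libraries lies at 9.81 to 10.7, and the third panel separates the kinds of library rather than the groups.

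The relation between members of a family depended on the libraries taken. Pearson's r of log2 CPM was 0.44 between miR-26a-5p and miR-26b-5p over 12 libraries and 0.61 within the 8 led by miR-148a-3p. Between miR-101a-3p and miR-101b-3p it was 0.71 over 12 libraries and -0.00 within the 8. Between miR-26a-5p and miR-101b-3p it was -0.47 over 12 and -0.22 within the 8. These values are descriptions, since the points share the scaling of each library and, over 12 libraries, the split into 2 kinds.

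The 5 miRNAs whose log2 CPM was most like each member, by Pearson's r over the 12 libraries, differed between the 4. For miR-26a-5p they were miR-337-5p (0.91), miR-22-3p (0.83), let-7a-1-3p (0.82), miR-30c-5p (0.81) and miR-128-1-5p (0.81). For miR-26b-5p they were miR-363-3p (0.82), miR-210-3p (0.68), miR-486a-5p (0.67), miR-451a (0.63) and miR-144-5p (0.62). For miR-101a-3p they were miR-181a-1-3p (0.90), miR-30c-2-3p (0.89), miR-193b-3p (0.88), miR-674-5p (0.88) and miR-34a-5p (0.87). For miR-101b-3p they were miR-129-5p (0.94), miR-1964-3p (0.93), miR-126a-3p (0.93), miR-192-5p (0.93) and miR-151-3p (0.93). Within the 8 libraries led by miR-148a-3p, 1 of the 5 stayed for miR-26a-5p, miR-101a-3p and miR-101b-3p each and 0 for miR-26b-5p.

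miR-126a-3p, which stands in the list for miR-101b-3p, is made in endothelial cells and was the only endothelial marker looked at. It was at 5454 to 10009 CPM in RE, 6294 to 11381 CPM in E, 5127 to 10338 CPM in F and 4425 to 10642 CPM in C. By kind of library it was at 4425 to 6294 CPM in those led by let-7g-5p, against 9621 to 11381 CPM in those led by miR-148a-3p. Pearson's r with it was 0.93 over 12 libraries and 0.32 within the 8 for miR-101b-3p, and 0.74 and -0.64 for miR-101a-3p. The part of endothelial cells in these levels was not tested.

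miR-451a and miR-144, which stand in the list for miR-26b-5p, are made in red blood cells. The 2 blood markers looked at, miR-451a and miR-144-3p, were both found in every library and summed to 190 to 535 CPM in RE, 185 to 800 CPM in E, 164 to 402 CPM in F and 128 to 420 CPM in C. E replicate 2 had the highest sum, 800 CPM, and also the highest miR-26b-5p. Pearson's r of miR-26b-5p with this sum was 0.64 over 12 libraries, 0.44 without E replicate 2 and 0.23 within the 8 libraries led by miR-148a-3p. For miR-101a-3p it was 0.63 over 12 libraries, 0.89 without E replicate 2 and 0.73 within the 8. The part of blood in these levels was not tested.

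Other miRNAs known to act on Ezh2 were read beside the members, from a list of 9 of which 8 were tested. None passed an adjusted p of 0.05 in edgeR in any comparison, and 1 did so at an unadjusted p under 0.05 in a single comparison, E against F, where 3.71% of all miRNAs tested did. This was miR-137-3p, a brain miRNA tied to neuronal maturation, with a mean of 105 CPM in E against 157 CPM in F and a log2 difference of -0.58 (unadjusted p = 0.0276, edgeR adjusted p = 0.996). The list's median log2 difference was 0.09 for RE against C, 0.17 for RE against F, 0.11 for RE against E, 0.02 for E against C, -0.06 for E against F and 0.11 for F against C. In level, let-7b-5p led this list at a mean of 11198 CPM over the 12 libraries, followed by miR-30d-5p at 5948 CPM, miR-124-3p at 931 CPM and miR-98-5p at 699 CPM.

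Of the opposite strands, miR-26a-2-3p alone was deep enough to be tested. It had 29.1, 16.7 and 21.6 CPM in F replicates 1 to 3, against 13.2, 9.09 and 15.2 CPM in C replicates 1 to 3. The 3 F libraries were above all 3 C libraries, at a log2 difference of 0.85 (SE 0.39, unadjusted p = 0.0506, edgeR adjusted p = 1.00). Such groups without overlap were found for 4.41% of all miRNAs tested in F against C, and in the 8 libraries led by miR-148a-3p the difference was 0.41 (unadjusted p = 0.269). In RE it had 11.6, 25.4 and 12.7 CPM and in E 19.3, 18.4 and 11.2 CPM, in the order of the replicate numbers, and RE, E and F overlapped.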

How the data were processed

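Small RNA of 12 BLA samples was sequenced and each library was put in its group by its label. Per the paper, the authors trimmed adapters with Cutadapt, predicted further miRNAs with miRDeep2 and aligned reads to mouse precursors with Novoalign; the submitters' notes name CASAVA 1.8 and hg38, a human build, and which miRNA reference release served is not stated in those sources. The authors deposited tag counts per mature miRNA, used here as counts. They also deposited normalized values, used as a score: counts per 1000000 of a total per library, rounded, of which the listed counts are 22.2% to 25.2%. Of 1169 lines, 109 repeated another line and were dropped, which left 1060 miRNAs, 307 of them predicted.

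edgeR 4.0.16 in R 4.3.3 (TMM, filterByExpr with a minimum count of 10, quasi-likelihood test, all 12 libraries in 1 fit) tested 431 miRNAs, with Benjamini-Hochberg adjustment over all of them. Levels are CPM of that fit, and log2 CPM used a prior count of 2. Intervals are at 95%. Per the paper, the libraries of a group come from separate mice, and no pair of libraries within a group agreed within sampling noise. Alternatives were DESeq2 1.42.0, its size factors, library totals, no filter, a mean count of 50, the 2 groups alone, a term for the kind of library, 8 libraries, a replicate block, each replicate left out, a replicate block over all 12 libraries added after seeing the data, and limma 3.58.1 on log2 of the authors' value with a pseudocount of 1 or 0.5. The steps were tested on simulated data. Sequences come from RefSeq and host genes from the GENCODE annotation of GRCm38. Named miRNAs are the members, their hairpins' other strands, the 5 most similar miRNAs, marker miRNAs and the Ezh2 list. Members, lists and alternatives were chosen with earlier results of these data known.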

Additional observations from a re-analysis of the deposited data

How the results depend on the processing

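No alternative brought a member past an adjusted p of 0.05. Of 552 member values under the alternatives, 501 kept their direction and 51 changed it, 28 of them with a library left out, and the lowest adjusted p was 0.145. Values that changed direction are as follows. In the 8 libraries led by miR-148a-3p they were -0.077 (miR-26a-5p, E against C), -0.074, -0.011 and 0.063 (miR-26b-5p, E against F, RE against F, RE against E) and -0.0015 (miR-101a-3p, F against C). With library totals miR-26b-5p gave -0.0024, -0.026 and -0.024 for F and RE against C and RE against F, and miR-101a-3p -0.017 for F against C. With limma, at pseudocounts of 1 and 0.5, miR-26b-5p gave -0.0318 and -0.0319 for F against C, -0.0906 and -0.0907 for RE against C and -0.0588 and -0.0589 for RE against F, and miR-101a-3p gave -0.0507 at both for F against C. miR-101b-3p, F against C, gave 0.0012 with no filter. miR-26a-2-3p gave -0.24 for RE against C in the 8 libraries; for RE against E it gave -0.0055 with DESeq2's size factors, -0.12 with totals, -0.00066 with no filter, -0.037 with the 2 groups alone, -0.29 in the 8 libraries and -0.26 and -0.299 with limma. The cause was not tested.

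With each replicate left out in turn, 14 of the 24 member differences took both signs. miR-26a-5p ran from -0.066 to 0.21 for E against C and from -0.21 to 0.011 for E against F. miR-26b-5p ran from -0.014 to 0.16 for RE against C, from -0.11 to 0.11 for RE against F, from -0.24 to 0.011 for RE against E and from -0.021 to 0.14 for F against C. miR-101a-3p ran from -0.058 to 0.33 for RE against E, from -0.056 to 0.24 for E against F and from -0.14 to 0.20 for F against C. miR-101b-3p ran from -0.37 to 0.062 for RE against C, from -0.36 to 0.081 for RE against F, from -0.10 to 0.25 for E against C, from -0.18 to 0.28 for E against F and from -0.23 to 0.20 for F against C. miR-26a-2-3p ran from -0.022 to 0.55 for RE against C and from -0.41 to 0.14 for RE against E. The 2 differences of RE to C named first in the report ran from 0.26 to 0.29 for miR-26a-5p and from 0.15 to 0.53 for miR-101a-3p. For miR-26a-5p, the 0.32 from all 12 libraries lay above this whole range, whichever library was left out. Why was not tested.

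The number of miRNAs past an adjusted p of 0.05, 0 in each comparison, became 5 for RE against C, 4 for F against C and for E against F, 2 for RE against E and 1 for RE against F with no filter. With the term for the kind of library it was 7 for RE against C and 1 for RE against E and E against F, and in the 8 libraries 4, 3 and 1. DESeq2 called 3 for RE against C and 1 for RE against E and F against C. With a replicate left out it was 0 to 1 for F against C and for E against F. The study's limits were passed by 3 to 12 miRNAs in the comparisons, and over the other settings by 0 to 20. For RE against C this was 12 against 3 to 20, RE against F 3 against 0 to 15, RE against E 4 against 3 to 17, E against C 3 against 1 to 12, E against F 7 against 4 to 17, and F against C 5 against 2 to 10.

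Whether replicate numbers pair the samples could not be told. Over 9 same-numbered pairs of libraries of C, F and E, r of their deviations from the group means was -0.72 to 0.74, with 5 above 0.1. Over pairs with different numbers it was -0.80 to 0.83. It was positive between libraries of the same kind and negative between the 2 kinds, which hides any effect of the number. A fit with the number as a replicate block turned 1 of 12 values, miR-101b-3p in F against C, to 0.0095, with a lowest adjusted p of 0.999. RE shares only number 3 with the others. A replicate block over all 12 libraries, chosen after seeing the data, ties RE to them through RE replicate 3 alone and leaves 4 residual degrees of freedom. It turned miR-101b-3p to 0.11, 0.082 and 0.019 for RE against C, F and E, miR-26b-5p to 0.095 for RE against E, and miR-26a-2-3p to -0.030 and -0.42 for RE against C and E, and 0 miRNAs passed an adjusted p of 0.05. The intervals given are for 1 test each. A difference whose interval just leaves out 0 can still miss an adjusted p of 0.05 over 431 miRNAs. The smallest change detectable with 3 libraries a group was not worked out.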
